A study of Mus musculus with 2 samples.

Results

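Cholesterol synthesis and turnover genes of the mouse brain were examined in open chromatin of the left cerebral cortex. The set holds 7 genes, chosen by name out of 21884 protein-coding genes of unique symbol: Hmgcs1, Sqle, Srebf1, Srebf2, Insig1, Cyp46a1 and Abca1. Both libraries came from left cerebral cortex tissue of adult male mice of the strain B6CASTF1/J, aged 18 to 20 months, with no treatment named. B6CASTF1/J is an F1 hybrid of a C57BL/6 strain and the wild-derived strain CAST, so each nucleus carries 1 copy of each autosome from each parent. The single X chromosome of male mice was not allowed for in the signals below. There was 1 group with 2 biological replicates and no second condition, so no test between groups was possible. The labels list a tissue sample for each replicate under a single donor entry, so the number of animals is not stated and the spread between the replicates may be technical. For each gene, peaks (stretches where the enzyme DNase I cut often) and footprints (short protected stretches inside open chromatin) were taken over the gene body and 10 kb on each side. A peak within 1 kb of a transcription start site (TSS) of the gene is called a promoter peak.

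Brain cells make their own cholesterol, because lipoproteins of the blood do not cross the blood-brain barrier. Synthesis is set by the SREBP transcription factors, membrane proteins encoded by Srebf1 and Srebf2, which are held in the endoplasmic reticulum by INSIG proteins while sterol is plentiful and are cut and sent to the nucleus when it is scarce. There they act on genes of the pathway, such as Hmgcs1 and Sqle, through sterol regulatory elements, often beside sites of the factors NF-Y and Sp. Neurons turn surplus cholesterol into 24-hydroxycholesterol with the enzyme encoded by Cyp46a1, and the transporter encoded by Abca1 loads cholesterol onto apolipoproteins.

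The promoter sequences below carry the footprints on which the results turn. They are reference sequence of GRCm38.p6 (mm10), written 5′ to 3′ on the strand of the gene, outside annotated exons, with capitals for bases that lay in footprints of both libraries. The CAST alleles of these mice were not read. The Hmgcs1 stretch is chr13:119690061-119690350 (plus strand), with a sterol regulatory element match, tcaccccac, that begins at the last base of a footprint.
Hmgcs1: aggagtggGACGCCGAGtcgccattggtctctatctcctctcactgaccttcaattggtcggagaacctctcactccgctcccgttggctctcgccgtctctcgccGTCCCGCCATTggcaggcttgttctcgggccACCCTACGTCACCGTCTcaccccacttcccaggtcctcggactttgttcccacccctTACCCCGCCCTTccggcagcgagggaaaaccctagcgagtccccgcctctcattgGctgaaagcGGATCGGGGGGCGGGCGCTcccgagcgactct
Sqle: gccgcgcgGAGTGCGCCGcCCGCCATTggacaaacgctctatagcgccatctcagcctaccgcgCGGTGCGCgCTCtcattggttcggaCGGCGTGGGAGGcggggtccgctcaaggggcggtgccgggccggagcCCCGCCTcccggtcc
Srebf2: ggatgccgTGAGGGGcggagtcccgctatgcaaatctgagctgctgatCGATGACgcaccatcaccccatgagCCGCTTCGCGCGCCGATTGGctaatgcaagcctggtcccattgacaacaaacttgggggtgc
Srebf1: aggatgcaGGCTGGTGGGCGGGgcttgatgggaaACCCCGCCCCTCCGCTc
Insig1: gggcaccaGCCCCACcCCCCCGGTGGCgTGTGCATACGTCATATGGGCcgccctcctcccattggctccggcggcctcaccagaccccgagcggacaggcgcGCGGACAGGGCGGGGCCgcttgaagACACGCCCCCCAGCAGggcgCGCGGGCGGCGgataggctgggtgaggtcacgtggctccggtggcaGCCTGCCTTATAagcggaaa
Cyp46a1: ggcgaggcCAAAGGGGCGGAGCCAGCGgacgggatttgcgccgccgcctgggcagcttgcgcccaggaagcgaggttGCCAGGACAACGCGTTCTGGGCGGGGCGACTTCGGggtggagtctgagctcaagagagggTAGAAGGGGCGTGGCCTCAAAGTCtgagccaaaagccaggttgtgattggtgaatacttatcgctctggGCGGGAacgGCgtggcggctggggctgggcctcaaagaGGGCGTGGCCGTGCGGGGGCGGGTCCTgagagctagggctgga
Abca1: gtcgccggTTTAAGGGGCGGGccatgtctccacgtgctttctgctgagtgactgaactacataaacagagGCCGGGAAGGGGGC
The other stretches lie at chr15:59314892-59315042 for Sqle, chr15:82147046-82147180 for Srebf2, chr5:28071136-28071348 for Insig1 and chr12:108333981-108334267 for Cyp46a1, all on the plus strand. On the minus strand lie those of Srebf1 (chr11:60220628-60220678) and Abca1 (chr4:53159989-53160072).

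Replicate 1 held 73221 peaks and 264450 footprints, and replicate 2 held 111105 peaks and 385637 footprints. The signal is the authors' own value per peak, of unstated scaling, with a median over all peaks of 1.24 in replicate 1 and 0.894 in replicate 2. Across the 12840 genes with a promoter peak in both libraries, the log2 ratio of the signals (replicate 1 over replicate 2) had a median of 0.32 and an SD of 0.46, and the ratios of all 7 genes lay between -0.49 and 1.04, the limits that leave out 5% of the genes at each end. Read totals were not analysed here, and the numbers of calls stand in for depth. As a check of the tissue label, 5 of 5 neuron markers and 5 of 5 markers of excitatory neurons had a promoter peak in both libraries. The same held for 4 of 5 oligodendrocyte, 1 of 5 astrocyte, 1 of 5 microglia, 0 of 5 endothelium and 0 of 5 liver markers, while 58.7% of all protein-coding genes had such a peak. With the longer lists the astrocyte count was 3 of 5 and the other counts were the same. In tissue, a site open in few cells and a site weakly open in many cannot be told apart.

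All 7 genes had a promoter peak in both libraries, against 58.7% of all protein-coding genes. In single libraries that background was 60.7% for replicate 1 and 61.2% for replicate 2. A share of this kind over 7 genes is a description and not a test. Their promoters differed widely in signal, with Cyp46a1 at the top and Srebf1 and Abca1 at the bottom. Of the 7, Hmgcs1, Sqle, Srebf2, Insig1 and Cyp46a1 had a signal above the median promoter of the library in both libraries. So had 26.8% of all protein-coding genes, which were 5865 of the 12840 with a promoter peak in both libraries. The median promoter had 3.82 in replicate 1 and 2.88 in replicate 2.

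Hmgcs1 encodes the cytosolic synthase of HMG-CoA, an early step of the pathway. Its promoter peak spanned bases -425 to -26 from the first TSS (the TSS itself is base 0) and had a signal of 7.76 in replicate 1 and 9.87 in replicate 2 (8.81 ± 1.49, SD, n = 2). Replicate 2 was the higher library, as it was for Srebf2 and Cyp46a1, whereas replicate 1 was higher for the other 4 of the 7 genes and for 75.5% of all genes with both peaks. No other peak of the shorter lists lay within the gene or 10 kb of it in either library.

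Sqle encodes squalene epoxidase, which makes the first oxygenated sterol precursor. Its promoter peak had a signal of 5.71 in replicate 1 and 4.30 in replicate 2 (5.01 ± 0.997), and spanned bases -260 to 19. A weaker peak (1.32 and 0.734) lay 8081 bases upstream, over a TSS of the neighbouring gene Zfp572. In the shorter lists neither enzyme gene had a distal peak, that is, one more than 1 kb from every annotated TSS. The longer lists held weak ones for Hmgcs1 in replicate 1 (up to 0.699) and for Sqle in replicate 2 (up to 0.394).

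The regulators split. Srebf2, whose product SREBP-2 favours cholesterol genes, had a promoter signal of 7.53 in replicate 1 and 7.87 in replicate 2 (7.70 ± 0.245). Srebf1, whose products also drive fatty acid synthesis, had 3.15 and 2.13 (2.64 ± 0.720) at its single TSS of the basic annotation. Insig1, which encodes an anchor of the SREBP complex and is itself a known SREBP target, had 7.13 and 4.76 (5.95 ± 1.67). Both Srebf2 values were above both Insig1 values, and both of these were above both Srebf1 values.

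Turnover genes stood at both ends of the range. Cyp46a1, the cholesterol 24-hydroxylase, had a promoter signal of 10.2 in replicate 1 and 10.4 in replicate 2 (10.3 ± 0.148), at percentiles 98.5 and 99.1 of all promoter peaks. Abca1 had 2.63 and 2.53 (2.58 ± 0.0685), at percentiles 33.7 and 44.0. The ranges of Hmgcs1 and Srebf2 overlapped, as did those of Insig1 and Sqle and those of Srebf1 and Abca1. Within a library Hmgcs1 was above Srebf2 and Insig1 above Sqle in both, while Srebf1 was above Abca1 in replicate 1 and below it in replicate 2. Cyp46a1 lay above Hmgcs1, Srebf2 above Insig1 and Sqle above Srebf1 in both.

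**Figure D1:**
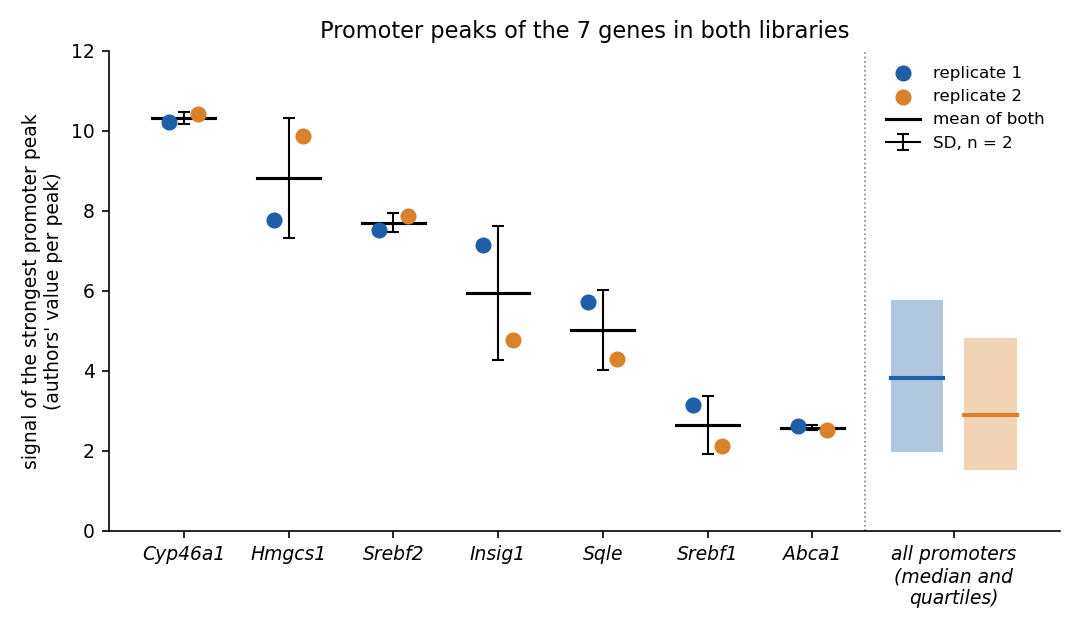
Signal of the strongest promoter peak (vertical axis, the authors' value per peak) of the 7 genes; points are the 2 libraries, black lines the mean and bars the SD (n = 2), and the shaded boxes span the quartiles of all promoters with their median. Cyp46a1 lay at 10.2 and 10.4, while Srebf1 and Abca1 lay inside the boxes, below the median of each library.

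Further promoter peaks stood beside the main ones. At least 2 promoter peaks in both libraries were counted for Srebf2, Insig1 and Abca1, 3 of the 7. The same held for 26.3% of all protein-coding genes. These were 5766 of the 12840 genes with any promoter peak in both libraries, the closer background, since all 7 genes had one. The second peak of Insig1, in its intron at bases 498 to 817, had a signal of 2.51 in replicate 1 and 4.24 in replicate 2 (3.37 ± 1.22), the opposite order to its main peak. Srebf2 had a second peak at bases 540 to 999 (1.87 and 1.23). Besides its peak near the 1 kb limit, Abca1 had a weak one at bases 344 to 528 (0.475 and 0.374). Promoter peaks of a single library were found for Srebf1 in replicate 1 (bases 124 to 323, 2.44) and for Cyp46a1 in replicate 2 (bases -901 to -821, 0.714). Insig1 had one in replicate 1 (bases -722 to -636, 0.521) and another in replicate 2 (bases -1122 to -903, 0.480).

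Around its TSS Insig1 had more bases of low false discovery rate than the rest of the 7 genes, in each library. All 2001 bases within 1 kb of its TSS were listed at a per-base false discovery rate of 0.001 or lower in replicate 2, and 1562 were in replicate 1. Of 10705 genes with 1 TSS, 0.121% had every base listed in replicate 2 and 0.056% in replicate 1. The median over the 7 genes was 773 bases in replicate 1 and 1004 in replicate 2, and over all genes with a promoter peak 686 and 822. Srebf2 came next after Insig1, with 969 and 1587. Such bases lay outside peaks at other genes too. Over the whole window, 40.6% and 35.8% of them were in peaks for Insig1, and 38.4% and 38.7% for Sqle. The Insig1 promoter peak covers the TSS of the non-coding gene Gm26608, which is read from the other strand, and the signal of these neighbours cannot be told apart.

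Beyond promoters the 7 genes differed in how many accessible regions they held. Over all 7 windows there were 30 peaks in replicate 1 (13 promoter peaks, 6 at another TSS and 11 distal) and 34 in replicate 2 (13, 7 and 14), and 25 of each overlapped a peak of the other library. Distal peaks per 100 kb had a median over the 7 genes of 1.34 in replicate 1 and 3.35 in replicate 2, near the medians of all genes (1.36 and 2.81).

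Cyp46a1 had the strongest distal peaks of the set, by the rule of more than 1 kb from every annotated TSS. This rule leaves out a stronger exonic peak of Srebf1, described below. Downstream of the gene, 29500 bases from the TSS, chr12:108363881-108364080 had a signal of 4.43 in replicate 1 and 2.80 in replicate 2 (3.61 ± 1.16). The TSS nearest to it, 6877 bases away, belongs to the neighbouring gene Eml1. Upstream, chr12:108333101-108333320 had 3.75 and 2.32 (3.03 ± 1.01). This second peak ends 1061 bases before the TSS and so falls just outside the promoter limit, while a peak of Abca1 that starts 955 bases into the gene (2.05 and 0.841) falls just inside it.

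For Srebf1 the strongest peak of the window was not at the promoter. It lay in the untranslated part of an exon near the end of the gene, chr11:60199721-60199940. Its signal was 6.45 in replicate 1 and 4.01 in replicate 2 (5.23 ± 1.72), and both values exceeded those of the promoter peak. The nearest annotated start, 677 bases away, is that of the microRNA gene Mir6921. The peak was therefore counted as at another TSS and not as distal. In the introns, chr11:60210381-60210660 had 2.76 and 1.65. This peak covers the TSS of a protein-coding Srebf1 transcript outside the basic annotation, so it was not counted as a promoter peak. Another, near an internal TSS, had 2.40 and 1.35 (chr11:60209281-60209528). Each was below the promoter peak of its library. Upstream of the GENCODE gene, inside an exon that RefSeq annotates, chr11:60222785-60223044 had 1.56 and 1.07. The strongest shared distal peak of Srebf1, 30626 bases downstream of the TSS and inside the gene Rai1, had 0.904 and 0.968.

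The strongest distal peak of Srebf2 lay in an intron, chr15:82165381-82165600, with a signal of 3.57 in replicate 1 and 1.80 in replicate 2 (2.68 ± 1.25). Repeat sequence made up 47.3% of this region. Another, 8341 bases upstream and overlapping the gene Ccdc134, had 1.85 and 1.43. Abca1, the longest of the 7 genes at 129109 bp, held only weak distal peaks, the strongest shared one being intronic at chr4:53115961-53116177 with 0.673 and 0.968 (0.820 ± 0.208). Insig1 had no distal peak in both libraries in the shorter lists. In the longer lists it had one downstream of the gene, with 0.475 in replicate 1 and 0.794 in replicate 2.

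**Figure D2:**
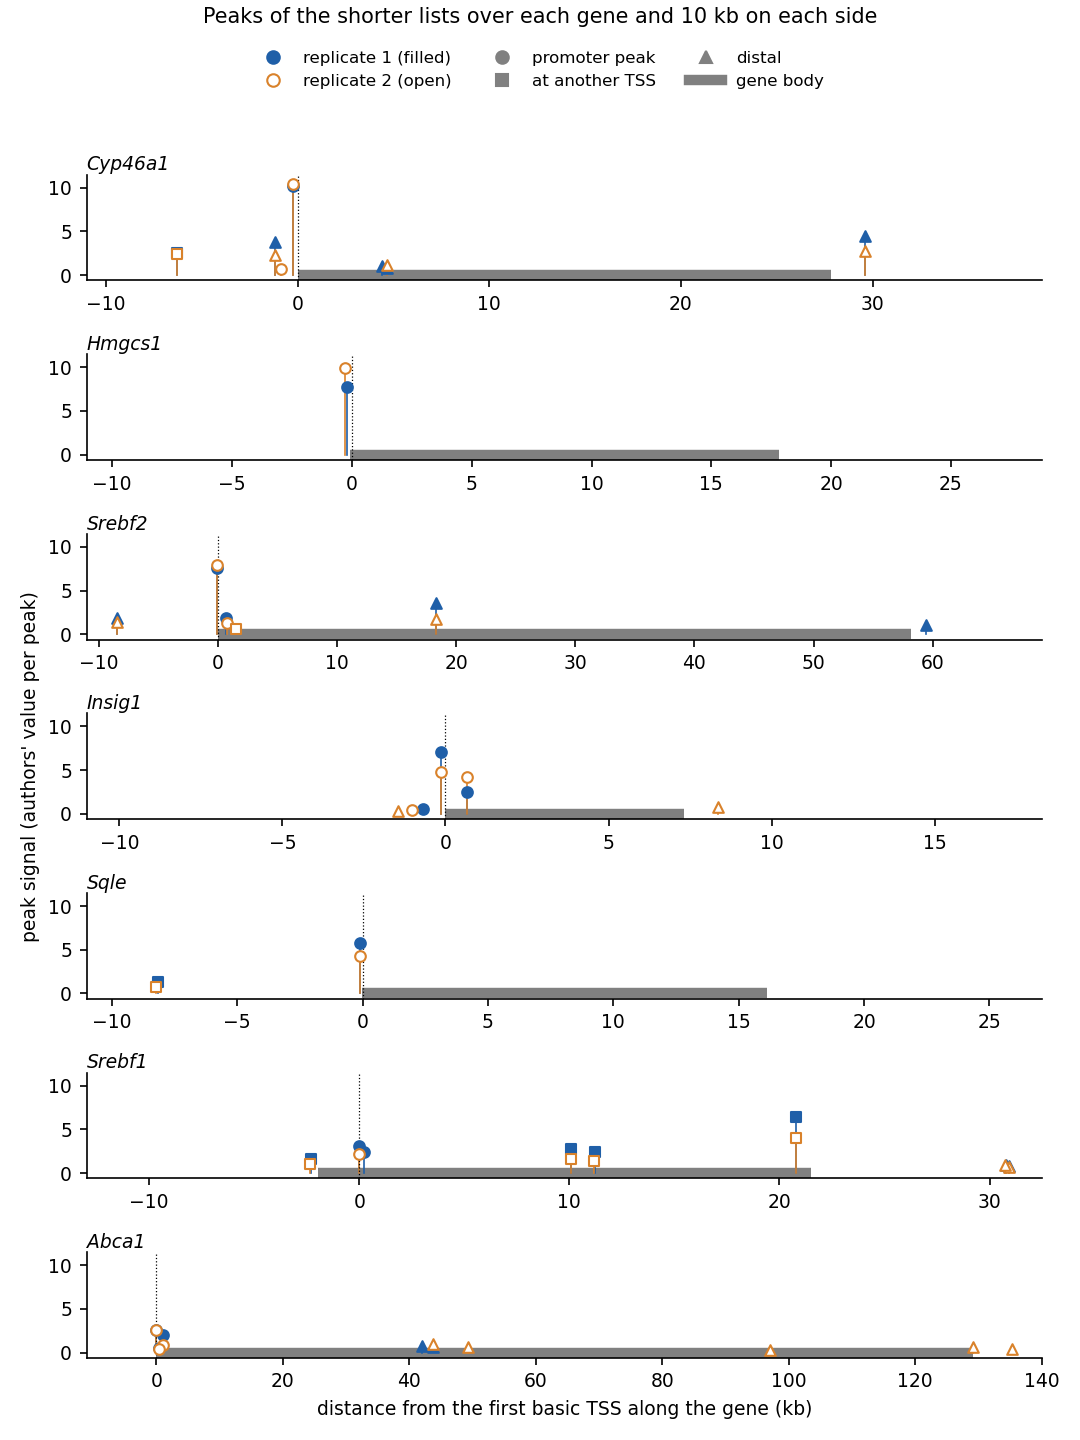
Peaks of the shorter lists by distance from the first TSS (horizontal axis, kb, along the gene) and signal (vertical axis, the authors' value per peak); filled symbols are replicate 1, open symbols replicate 2, and grey bars the gene bodies. Hmgcs1 shows its promoter peak alone, while Srebf1 has its highest peak at the far end of the gene, at 6.45 and 4.01.

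Footprints in the strongest promoter peaks were mostly found in both libraries. Over the merged promoter regions of the 7 genes there were 42 footprints in replicate 1, of which 36 overlapped one of replicate 2 (85.7%), and 50 in replicate 2, of which 36 overlapped one of replicate 1 (72%). Over 11897 genes the shares were 70.6% and 64.4%. Cyp46a1 had 8 footprints in each library, and all 8 of replicate 1 were matched. A promoter peak held a median of 5 footprints in replicate 1 and 7 in replicate 2 for the 7 genes, and 4 in both for all genes. The peaks of the 7 genes were also wider, with medians of 260 and 280 bp against 220 and 240 bp. Footprints covered a median of 28.2% of their bases in replicate 1 and 37% in replicate 2, against 26.25% and 25.8% for all genes.

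Of 11 motifs searched on both strands, the letters GGGCGG, bound by Sp and Klf factors, were the ones shared by all 7 promoters. A match is a description of letters and not of a bound factor. In a window of 300 bases on the promoter peak, 7 of 7 genes held GGGCGG, and in 7 of 7 a match had its middle base in a footprint of both libraries. Among 11897 such windows the shares were 68.7% and 40.8%. In the Cyp46a1 promoter peak all 6 matches lay in footprints of both libraries, 4 of which stand in the sequence above, between bases -387 and -135. Its 300-base window held 4 such matches, a number reached by 1.59% of all windows.

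CCAAT, the NF-Y letters, occurred in 5 of 7 windows (Hmgcs1, Sqle, Srebf2, Insig1 and Cyp46a1), against 40.1% of all windows. It lay in footprints of both libraries in Hmgcs1, Sqle and Srebf2, against 9.72% of windows. Hmgcs1 held 5 copies, all on the strand opposite to the gene; 0.706% of windows held 5 or more. The copy at bases -271 to -267 was in a footprint of both libraries, and the other 4 had their middle in a footprint of 1 library each. In Sqle, CCAAT (bases -165 to -161) stood 3 bases beyond a GGGCGG match (bases -174 to -169). In both libraries the GGGCGG match spanned the gap between neighbouring footprints. Its middle base lay in the first, and its end reached into the next, which held the middle of CCAAT.

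The sterol regulatory element, searched as TCACNCCAC, was found in the window of Hmgcs1 alone (bases -232 to -224) and in 1.05% of all windows. Its first base was the last base of a footprint in both libraries, and its middle lay outside. The shorter core CACNCCAC was found for Hmgcs1, Sqle and Insig1, against 6.08% of windows. In Insig1 the core at bases -205 to -198, on the strand opposite to the gene, had its middle in a footprint of both libraries, as in 1.20% of all windows.

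Away from the promoters, the upstream peak of Srebf1 held another full match, TCACCCCAC (bases -2263 to -2255), in a footprint of replicate 2 alone. The same peak held an E-box, CACGTG, at bases -2308 to -2303, in footprints of both libraries. The motif shares given here are over promoter windows, and none was counted over peaks away from promoters. E-boxes also occurred in the windows of Insig1 and Abca1 (10.9% of all windows), neither in footprints of both libraries. No window of the 7 held the letters searched for NRF1 (CGCATGCG), for CREB (TGACGTCA), for AP-1 (TGANTCA), for EGR (GCGTGGGCG), for NFI or CTCF, or the LXR repeat (AGGTNA and NGGTCA with 4 bases between); of all windows, 4.68%, 4.36%, 4.13%, 1.48%, 0.00841%, 1.64% and 0.0672% did.

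**Figure D3:**
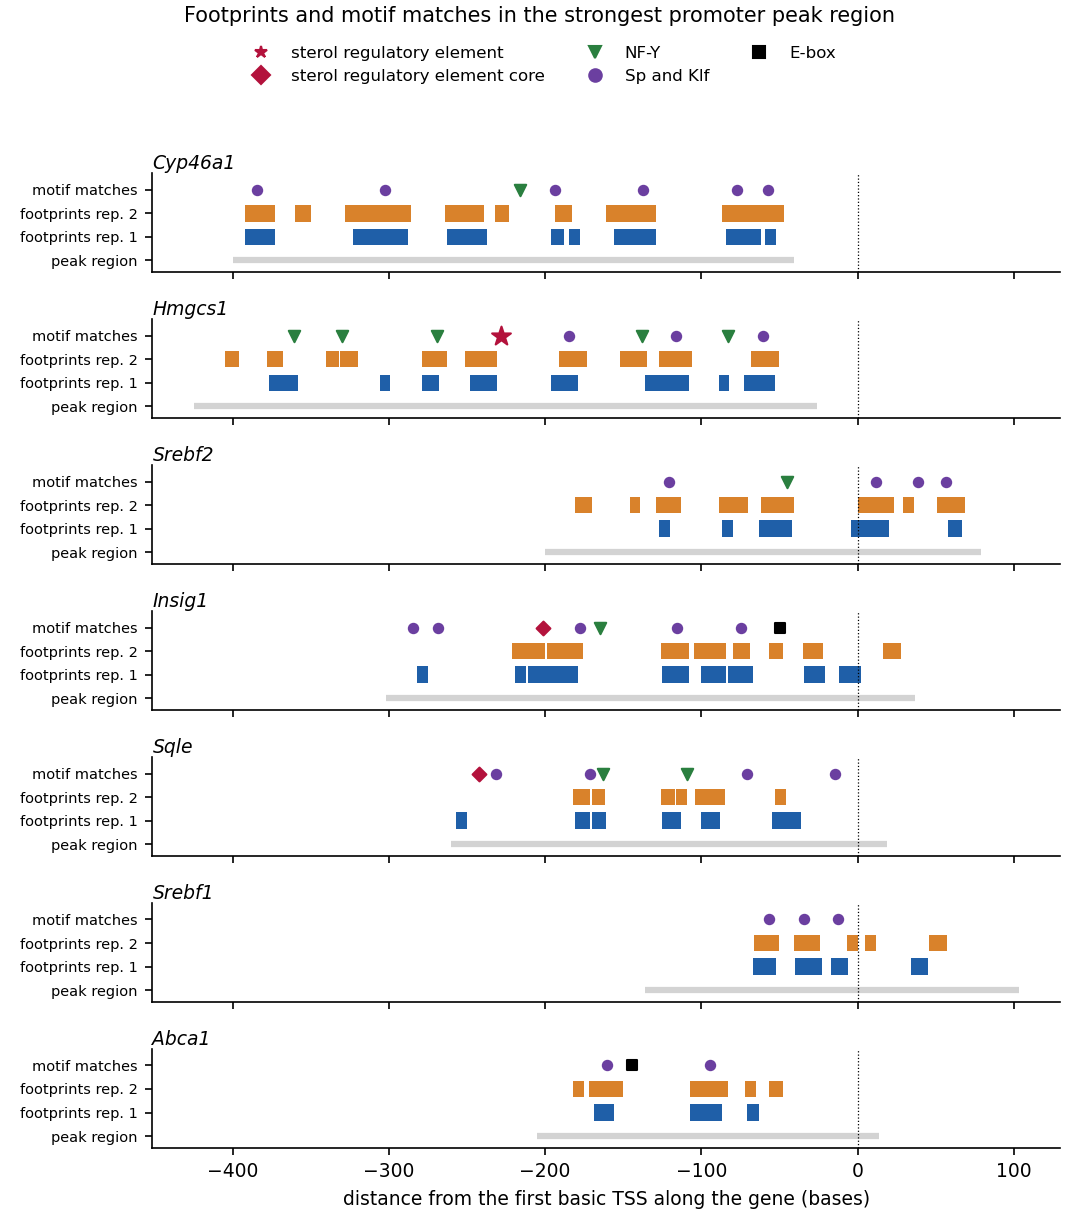
Footprints (blue, replicate 1; orange, replicate 2) and motif matches in the strongest promoter peak region (grey) of each gene, by distance from the first TSS in bases along the gene. In Cyp46a1 each of the 6 GGGCGG matches sits over footprints of both libraries, and in Hmgcs1 the sterol regulatory element sits beside one.

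Some footprints were long and had nearly the same bounds in both libraries. Footprints with 25 or more bases in common were found 6 times, in the windows of Srebf1, Srebf2 and Cyp46a1 (3 of 7 genes, against 46.2% of all genes). The longest covered 45 bases of the exonic Srebf1 peak, chr11:60199805-60199849, with identical bounds in both. In the Srebf2 intron 43 bases, chr15:82165472-82165514, had identical bounds too, and downstream of Cyp46a1 40 bases were common. The latter pair are shown with their flanks, capitals marking footprints of both libraries. The stretches are chr15:82165398-82165522 and chr12:108363882-108364066, on the plus strand. Repeat sequence made up 69.6% of the Srebf2 stretch and 0.0% of the Cyp46a1 stretch.
Srebf2 intron: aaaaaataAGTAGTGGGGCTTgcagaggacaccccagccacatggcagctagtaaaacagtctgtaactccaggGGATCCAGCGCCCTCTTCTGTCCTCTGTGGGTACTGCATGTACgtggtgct
Cyp46a1 downstream: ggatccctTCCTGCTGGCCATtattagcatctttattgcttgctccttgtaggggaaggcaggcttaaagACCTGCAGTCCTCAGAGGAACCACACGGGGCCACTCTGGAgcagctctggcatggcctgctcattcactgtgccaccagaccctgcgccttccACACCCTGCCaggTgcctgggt
CTCF matches in footprints of both libraries were found in an intron of Cyp46a1 and in one of Abca1, on the strand opposite to the gene. The share of other distal peaks with such a match was not counted. The Cyp46a1 match lay in a peak of replicate 1 alone (1.05), and the Abca1 match in a peak of replicate 2 alone (0.641), so footprints were listed in a library whose shorter list held no peak there. The stretches are chr12:108338752-108338786 (plus strand) and chr4:53110526-53110560 (minus strand).
Cyp46a1 intron: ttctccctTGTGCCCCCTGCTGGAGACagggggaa
Abca1 intron: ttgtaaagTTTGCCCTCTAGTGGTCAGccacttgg

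The rest of the pathway was described with 45 further genes in 5 roles. Of these, 42 had a promoter peak in both libraries (93.3%), against the 58.7% of all genes. All 18 synthesis genes had one, with list medians of 5.38 in replicate 1 and 5.68 in replicate 2. The highest was Fdft1, which encodes squalene synthase (9.79 ± 1.30). The lowest were the sterol isomerase gene Ebp (1.99 ± 0.175) and the sterol reductase gene Tm7sf2 (3.03 ± 1.25). The place of Tm7sf2 comes from replicate 2 (2.15), since in replicate 1 (3.91) other synthesis genes were lower. Of 18 synthesis genes, 13 were above the median promoter of the library in both libraries, against 26.8% of all protein-coding genes. The latter were 5865 of the 12840 genes with a promoter peak in both libraries, the closer background, since all 18 had one.

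Regulatory genes were open in 7 of 9, against 58.7% of all genes. By mean signal Mylip, which encodes a ubiquitin ligase that acts in lipoprotein uptake (7.18 ± 0.168), and Scap, the sterol sensor that escorts SREBPs (6.51 ± 2.65), were highest. Neither library alone gave this pair: Nr1h2, which encodes LXR beta and is named here after its values were seen, had 7.42 in replicate 1, above the 7.30 of Mylip, and 5.20 in replicate 2, above the 4.63 of Scap. The protease gene Mbtps2, whose product cuts SREBPs, was lowest (0.726 ± 0.14). No promoter peak was listed in either shorter list for Nr1h3, which encodes LXR alpha. The longer lists held one for Nr1h3 (0.930 and 0.494), and 63.3% of all genes had one there in both libraries.

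Genes of uptake, transport and storage were open in 9 of 9 and efflux genes in 5 of 5, again against 58.7% of all genes. By mean signal the former were led by the lysosomal cholesterol exporter Npc1 (8.70 ± 0.747) and the ester hydrolase gene Nceh1 (6.28 ± 1.09). The receptor genes Vldlr (1.53 ± 0.194) and Scarb1 (2.39 ± 1.22) were lowest. The places of Nceh1 and Scarb1 held in 1 library each: Npc2 was above Nceh1 in replicate 2 (6.39 against 5.51), and Lrp8 below Scarb1 in replicate 1 (2.96 against 3.25). Among efflux genes, the transporter genes Abca7 (5.91 ± 2.17) and Abca2 (4.59 ± 1.34) were higher than Abcg4 (0.992 ± 0.00612) and Apoe (1.14 ± 0.00494), which encodes the main apolipoprotein of the brain and is made mostly by astrocytes.

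Oxysterol enzymes other than Cyp46a1 had weak promoter peaks, with list medians of 0.845 in replicate 1 and 0.634 in replicate 2. Cyp7b1 (0.839 ± 0.120), Ch25h (0.739 ± 0.149) and Cyp27a1 (0.567 ± 0.141) were all under 1 in both libraries, next to 10.2 and 10.4 for Cyp46a1. The liver enzyme gene Cyp7a1, which starts bile acid synthesis, had no promoter peak. Their number, 3 of 4 open in both, is read beside the background of 58.7%.

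**Figure D4:**
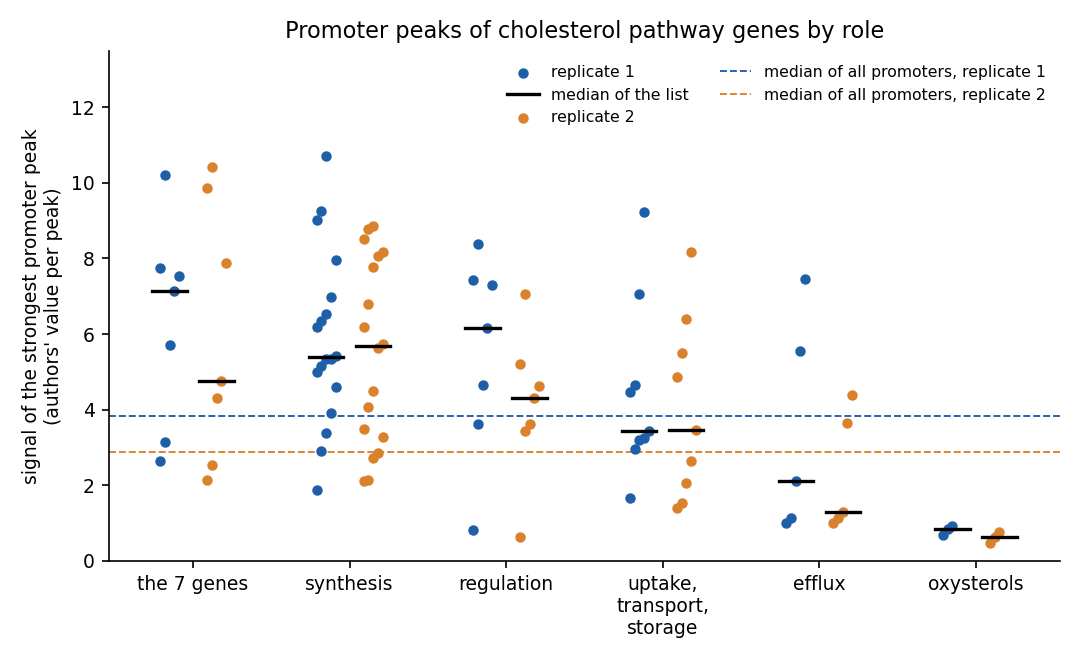
Signal of the strongest promoter peak (vertical axis, the authors' value per peak) for the 7 genes and for the further pathway genes by role; points are genes in replicate 1 (blue) and replicate 2 (orange), black lines list medians, and dashed lines the medians of all promoters. The 18 synthesis genes centre at 5.38 and 5.68, and the 3 oxysterol genes with a peak lie under 1.

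CCAAT was also frequent in the other synthesis promoters. Of 16 synthesis genes with a window, 14 held it (87.5%), against 40.1% of all windows, and in 4, among them Mvk, Fdft1 and Sc5d, it lay in footprints of both libraries. The share of all windows with CCAAT in such footprints was 9.72%. GGGCGG was held by 14 of 16 and lay in such footprints in 9, against 68.7% and 40.8% of all windows. Of 38 pathway windows, 0 held TCACNCCAC, a motif held by 1.05% of all windows. These motif counts over the pathway list were added after the data were seen.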

How the data were processed

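The 2 DNase-seq libraries came from left cerebral cortex. Per the labels and the deposited notes, the authors called peaks and footprints in each library separately from its alignments on mm10; no source used here names the tools, versions or thresholds. The authors' peak signal is 1 value per peak, and its scaling is not stated. The deposited footprint score was 0.01 throughout and was left out. The deposited per-base values are false discovery rates (q-values) of at most 0.05. Alignments of both parental genomes share the mm10 reference, built from C57BL/6J.

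The shorter of the deposited peak lists of each library was the main list and the longer an alternative. Genes and TSSs came from GENCODE M21 (basic transcripts for promoter peaks), sequences from GRCm38.p6. Peaks were shared at 1 bp of overlap. Footprints were counted where their middle lay in the peak. Percentiles rank a gene's strongest promoter peak among all genes with one in that library. The 300-base windows were centred on the strongest promoter region where it overlapped between libraries. The code used python 3.11.15, numpy 2.4.6, pandas 2.3.3, pysam 0.24.0 and matplotlib 3.10.9, and its overlap and motif functions were tested on simulated data.

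The 7 genes, the pathway and marker lists and the motifs were chosen with earlier results of these data known. Named besides the 7 genes were pathway genes without a promoter peak and, in each role, the 2 highest and 2 lowest by mean signal, of which some are not reported here; for peaks, all promoter peaks and each gene's strongest shared distal peak. Other peaks and long footprints named were chosen after their values were seen. Alternatives covered peak lists, distances, scaling, overlap, motif settings and leaving out each library.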

Additional observations from a re-analysis of the deposited data

How the results depend on the processing

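All 7 genes had a promoter peak in both libraries under each alternative tried: the longer peak lists, limits of 500 bp and 2 kb, TSSs of all transcripts, the same number of strongest peaks, and each library alone. The pathway count was 39 to 43 of 45 (42 to 42 in single libraries) and that of all genes 12311 to 13855 (13273 to 13393 in single libraries). The median of the 7 genes' mean signals was 5.95, 4.76 to 7.13 in single libraries, and 1.76 when each signal was divided by the median promoter signal of its library. The number of distal peaks of replicate 1 shared with replicate 2 depended most on the settings: it was 8, then 16 with the longer lists, 3 over the gene bodies alone and 32 with 50 kb on each side, while single libraries held 11 to 14. Footprints in the promoter peaks numbered 55 on average (54 to 56 in single libraries). Of 15 promoter peak regions, 11 of them in both libraries, 8 held a motif match inside a footprint under every setting. The same share over all promoter peak regions was not counted. GGGCGG alone lay in footprints of both libraries in 40.8% of all windows. Regions with a sterol regulatory element inside a footprint numbered 0 (0 to 0 in single libraries). The number was 1 when touching a footprint counted, or with the shorter core. The longer peak lists, gene bodies, wider windows and looser motif settings change by construction what is counted. With 2 libraries and no read totals, a difference between neighbouring values cannot be set against counting error.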
